A study of Mus musculus with 6 samples.

Results

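The channel genes described here are the calcium channel, sodium channel, transient receptor potential (TRP) and hyperpolarization-activated cyclic nucleotide-gated (HCN) genes of the mouse. They were taken by symbol alone, as every symbol that starts with Cacn, is Scn followed by a number and a or b, is Trpa, Trpc, Trpm or Trpv followed by a number, or is Hcn followed by a digit. This gave 66 of the 24453 gene symbols in the files. The set was put forward with results of this comparison known, so the counts below describe it and are not independent evidence about it.

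RNA was sequenced from sorted cells of the back skin of newborn mice at postnatal day 0, labelled as hair follicle cells. The mutant group (HF_I53A) holds 3 libraries of the genotype Ring1a-/- Ring1b-/I53A, and the control group (HF_CTL) holds 3 libraries whose genotype is given only as Control. The mutant genotype joins loss of Ring1a (gene Ring1), a null allele of Ring1b (gene Rnf2) and the I53A allele of Ring1b, and no group separates these. Ring1a and Ring1b are the ubiquitin ligases of Polycomb repressive complex 1, and the I53A change is known to impair the ligase activity while the protein remains. The sources used here do not give the driver and tissue of any conditional deletion or the alleles that the controls carry. The sort described in the protocol keeps Sca1-positive cells of the interfollicular epidermis, whereas the samples are labelled as hair follicle. The labels do not say that the libraries of a group come from separate animals, so the p-values measure the spread between these samples, which may be technical.

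Voltage-gated calcium channels open when the membrane depolarizes, and each is built on 1 pore subunit of the Cacna1 family. L-type channels (Cacna1c, Cacna1d, Cacna1f and Cacna1s) need strong depolarization and are known from muscle, heart and endocrine cells. N, P/Q and R-type channels (Cacna1b, Cacna1a and Cacna1e) are known from nerve terminals, and T-type channels (Cacna1g, Cacna1h and Cacna1i) open near the resting potential. The Cacna2d, Cacnb and Cacng genes encode subunits that help to bring the pore to the membrane or tune it. Scn genes encode the pores and the beta subunits of voltage-gated sodium channels, TRP channels pass cations in response to heat, chemical or mechanical stimuli, and HCN channels carry pacemaker currents. In skin, keratinocytes are known for the warmth-gated channels Trpv3 and Trpv4 and for a calcium gradient that accompanies their differentiation.

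Library totals ran from 14335156 to 18811587 counts, and a count of 0 allows up to 3 counts, which is 0.164 to 0.204 CPM (counts scaled to 1e+06 per library). Ring1 had 3.23, 7.10 and 4.88 CPM in the mutant libraries, against 16.8, 22.1 and 21.1 CPM in the controls (log2 fold change -1.98 ± 0.33 SE, adjusted p = 0.0113). Rnf2 averaged 67.1 ± 3.68 CPM in mutants and 59.8 ± 6.93 CPM in controls (SD, n = 3 each), and a count over the whole gene does not check a point change. Keratinocyte and follicle markers were abundant in every library, with a summed level over 12 genes of 14770 to 19800 CPM in mutants and 13900 to 16650 CPM in controls, with a median log2 fold change of 0.04. Of these genes Lgr5 fell and none was called higher. At an unadjusted p under 0.05, 1 was higher and 2 lower, DESeq2 called 1 higher and 1 lower, and the replicate block called 2 higher and 2 lower. The 7 interfollicular differentiation markers in the files summed to 2579 to 4233 CPM in mutants and 4016 to 5500 CPM in controls. Their median log2 fold change was 0.53, although the summed level was lower in mutants on the whole. Of these markers 0 were called by edgeR or DESeq2, and 1 was higher and 2 lower at an unadjusted p under 0.05. The replicate block called 1 higher and 1 lower. Of all genes tested, 14.9% had an unadjusted p under 0.05 in either direction, and edgeR called 2.59% higher and 0.404% lower. DESeq2 called 5.15% higher and 1.72% lower, and the replicate block 6.09% higher and 3.29% lower. At these shares few calls would be looked for among 7 or 12 genes. Ly6a, the gene of Sca1, is 1 of the 7 interfollicular genes and averaged only 1.23 CPM in mutants and 0.852 CPM in controls. The median of 0.53 weighs this low gene like the abundant ones, so it does not show a rise of differentiation markers.

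Of the 66 channel genes, 37 passed the filter on low counts and were tested. Genes were called at an adjusted p under 0.05 in edgeR's quasi-likelihood test with Benjamini-Hochberg adjustment over all 14345 genes tested, and every adjusted p below is from that test unless another tool is named. In the mutants, 4 channel genes rose, all of them Cacna1 pore genes: Cacna1h, Cacna1c, Cacna1d and Cacna1g. Among all genes tested, 2.59% were called higher and 0.404% lower. No channel gene was called lower. At an unadjusted p under 0.05, 12 channel genes were higher and 1 lower, where 14.9% of all genes tested had such a p in either direction. The limma-voom fit called the same 4 channel genes higher and 0 lower, where it called 2.50% of all genes higher and 0.453% lower. DESeq2 called 9 channel genes higher and 0 lower, where it called 5.15% of all genes higher and 1.72% lower. The log2 fold change was positive for 30 of the 37 tested channel genes, where 49.7% of all genes tested were positive. Its median was 0.72, against -0.0033 over all genes tested. The filter can keep a low gene that is high in 1 group only. Without the filter the median was 0.39 for channel genes with reads, against -0.0013 over all genes with reads. The mutant libraries all lay above the controls for 13 tested channel genes, all below for 2, and overlapped with them for 22, where 12.1% of all genes tested lay wholly above and 9.15% wholly below. With the replicate number as a block, 7 channel genes were called higher and 0 lower, adding Cacna1b, Cacna1e and Trpc4, where 6.09% of all genes were called higher and 3.29% lower. The labels do not say what a replicate number marks, and the pairing was read from these same libraries. Calls made with the block alone depend on that pairing.

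**Figure D1:**
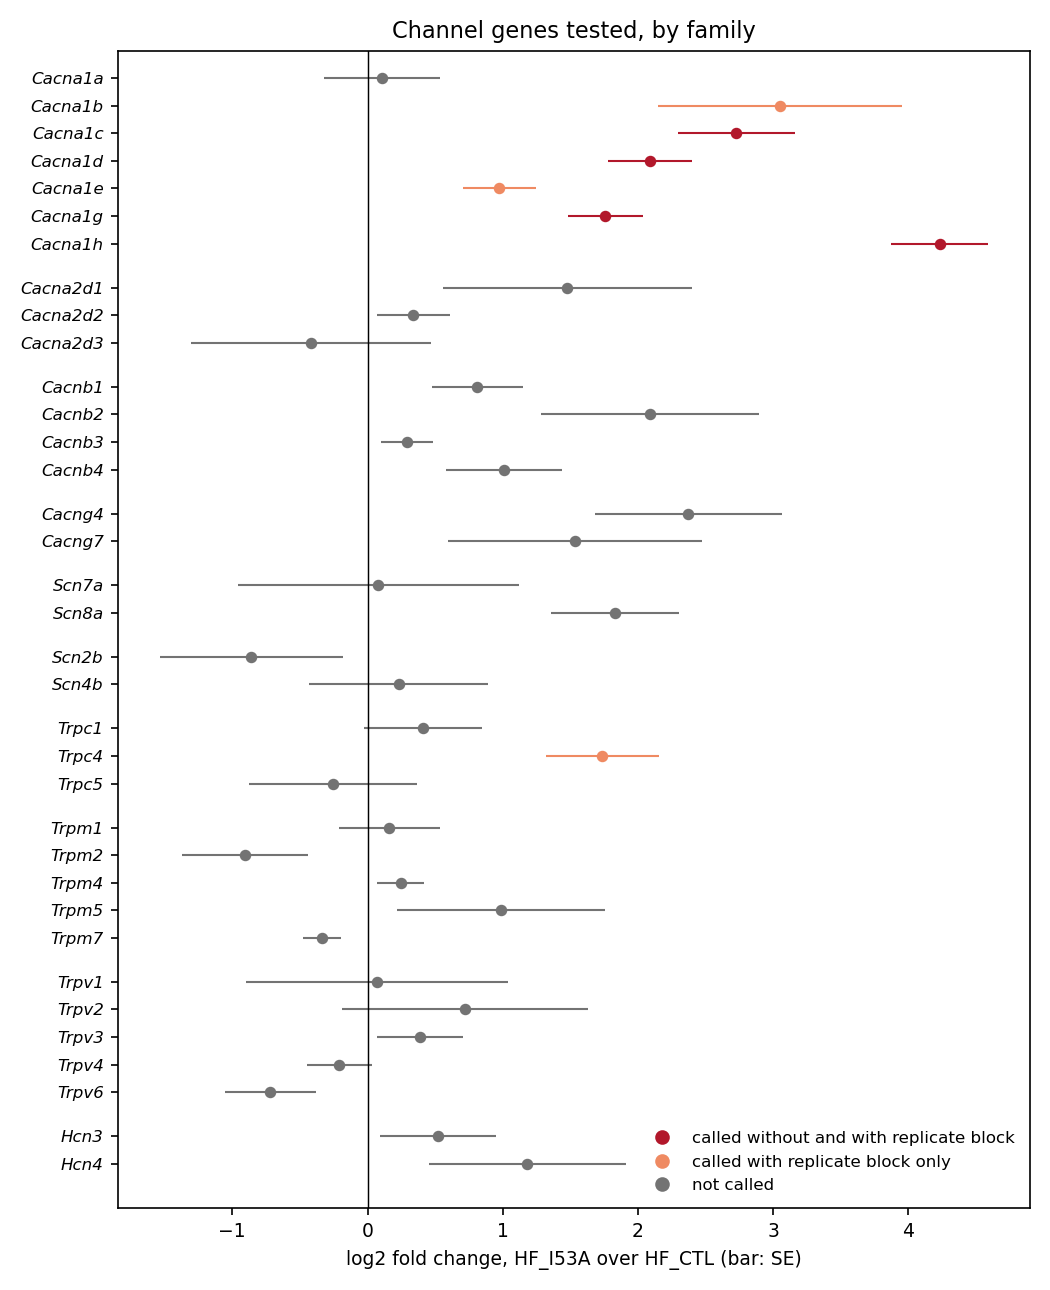
Log2 fold change of 35 of the 37 tested channel genes, HF_I53A over HF_CTL (horizontal axis, bars are the SE), grouped by family (vertical axis). Of the 7 tested Cacna1 genes, 4 were called without and with the replicate block and 2 with the block alone, and in the other families Trpc4 was called with the block alone.

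The files hold no genome positions, so positions are given from GENCODE M21 on GRCm38, the assembly also known as mm10. Cacna1c (chr6:118587240-119196418, minus strand) and Cacna1d (chr14:30039939-30491455, minus strand) each have more than 1 annotated start. Their upstream sequences are shown because both L-type genes that rose have 1 start inside a dense run of CpG dinucleotides and another start that is poor in them. The sequences are RefSeq promoter windows on GRCm38.p6, reaching 250 bases upstream of a start. Each is printed 5′ to 3′ on the gene's strand, with the letters CG in capitals and with bases inside an annotated exon of the gene left off at the 3′ end.

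Cacna1c, CpG-dense start, chr6:119108574-119108745: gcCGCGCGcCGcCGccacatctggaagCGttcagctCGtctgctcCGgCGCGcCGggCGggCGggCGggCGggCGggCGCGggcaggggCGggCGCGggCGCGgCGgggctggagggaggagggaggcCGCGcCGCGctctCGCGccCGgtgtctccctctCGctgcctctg
Cacna1c, distal start, chr6:119196419-119196659: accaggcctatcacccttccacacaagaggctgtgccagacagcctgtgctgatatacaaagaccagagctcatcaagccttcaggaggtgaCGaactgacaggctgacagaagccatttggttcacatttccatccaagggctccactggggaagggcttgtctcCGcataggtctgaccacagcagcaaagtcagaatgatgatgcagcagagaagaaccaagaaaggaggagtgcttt
Cacna1d, CpG-dense start, chr14:30353487-30353736: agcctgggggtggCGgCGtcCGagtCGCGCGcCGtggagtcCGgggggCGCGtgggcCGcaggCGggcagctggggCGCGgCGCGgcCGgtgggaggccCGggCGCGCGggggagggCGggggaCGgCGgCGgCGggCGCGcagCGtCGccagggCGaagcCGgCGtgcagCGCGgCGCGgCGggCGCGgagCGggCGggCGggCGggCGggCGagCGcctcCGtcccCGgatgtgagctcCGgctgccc

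The dense Cacna1c window held 48 CpG in its 250 bases, 32 of them in the 172 bases printed, and the dense Cacna1d window held 50. Over the 32851 RefSeq windows of the same length, the median was 6 CpG, and 0.186% held at least 48 and 0.0944% at least 50. The distal Cacna1c window held 2 CpG, another Cacna1c window (chr6:118757975-118758224) held 5 and the other Cacna1d window (chr14:30491157-30491406) held 2, and 81.2% of all windows held at least 2. CG reads the same on both strands, so a count on 1 strand covers both. The counts per gene do not show which start a read came from, and no binding or methylation was measured in these samples. RefSeq windows were matched for 51 of the 66 channel genes, and Cacna1g and Cacna1h were not among them. Channel genes that were not called also had a dense and a poor window, with 26 and 1 CpG at Cacnb1, 30 and 3 at Cacnb2, 23 and 2 at Cacnb3, and 37, 23 and 4 at the 3 windows of Cacnb4.

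Among the L-type pore genes, Cacna1c was higher in the mutants. It had 21.5, 17.5 and 14.8 CPM in the mutant libraries (392, 294 and 221 reads), against 2.86, 1.13 and 4.09 CPM in the controls (42, 18 and 72 reads). The lowest mutant library was above the highest control, and the log2 fold change was 2.73 ± 0.44 SE (adjusted p = 0.00974). Cacna1c stayed called in each of the 6 fits that left out 1 library, closest to the threshold without control 1 (adjusted p = 0.0499). Cacna1d, the L-type pore that opens at less depolarized potentials, had 19.2, 17.6 and 12.7 CPM in mutants, against 3.13, 3.51 and 4.94 CPM in controls. The groups did not overlap, and the log2 fold change was 2.09 ± 0.31 SE (adjusted p = 0.00761), called in all 6 fits that left out 1 library with an adjusted p of at most 0.0445. The other L-type genes were under the filter. Cacna1f, known from photoreceptors, had 15 reads over the mutant libraries and 4 over the controls. Cacna1s, the skeletal muscle pore, had 0 reads in mutants and 10 in controls, 9 of them in control 2.

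The T-type pore genes held the largest fold change and the highest level of the Cacna1 family. Cacna1h (chr17:25374285-25433783, minus strand) had 23.5, 26.4 and 27.4 CPM in the mutant libraries (429, 443 and 410 reads), against 0.750, 1.32 and 1.99 CPM in the controls (11, 21 and 35 reads). The mutant libraries were close to each other and all far above the controls, with means of 25.8 ± 2.02 CPM in mutants and 1.35 ± 0.619 CPM in controls (SD, n = 3 each), a ratio of 19.1. The log2 fold change was 4.23 ± 0.36 SE (adjusted p = 0.000451), and it lay between 3.95 and 4.63 when each library was left out, with an adjusted p of at most 0.00411. Cacna1g (chr11:94408391-94474198, minus strand) was already present in controls, with 52.1, 54.6 and 37.4 CPM in mutants, against 11.6, 20.02 and 10.95 CPM in controls. The groups did not overlap, and the log2 fold change was 1.76 ± 0.28 SE (adjusted p = 0.00957). The call was lost without mutant 2 (adjusted p = 0.0511) and without control 1 (adjusted p = 0.0557), while both fold changes stayed positive. Cacna1i, the remaining T-type pore, had 7 reads, all in mutant 2.

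The N, P/Q and R-type pore genes were not called in the fit without the block. Cacna1b, the N-type pore of nerve terminals, had 4.71, 2.92 and 5.28 CPM in mutants, against 0.681, 0 and 0.851 CPM in controls. The groups did not overlap, and the log2 fold change was 3.05 ± 0.90 SE (adjusted p = 0.122, and 0.0341 with the replicate block). Cacna1e, the R-type pore, had 27.7, 23.5 and 16.1 CPM in mutants, against 11.6, 13.4 and 9.25 CPM in controls. All mutant libraries were again above all controls, with a log2 fold change of 0.98 ± 0.27 SE (adjusted p = 0.0996, and 0.0220 with the block). DESeq2 called both genes (adjusted p = 0.00427 for Cacna1b and 0.0236 for Cacna1e). Cacna1a, the P/Q-type pore, averaged 4.83 ± 2.17 CPM in mutants and 4.49 ± 0.835 CPM in controls (SD, n = 3 each), and its groups overlapped (log2 fold change 0.11 ± 0.43 SE, adjusted p = 0.947).

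**Figure D2:**
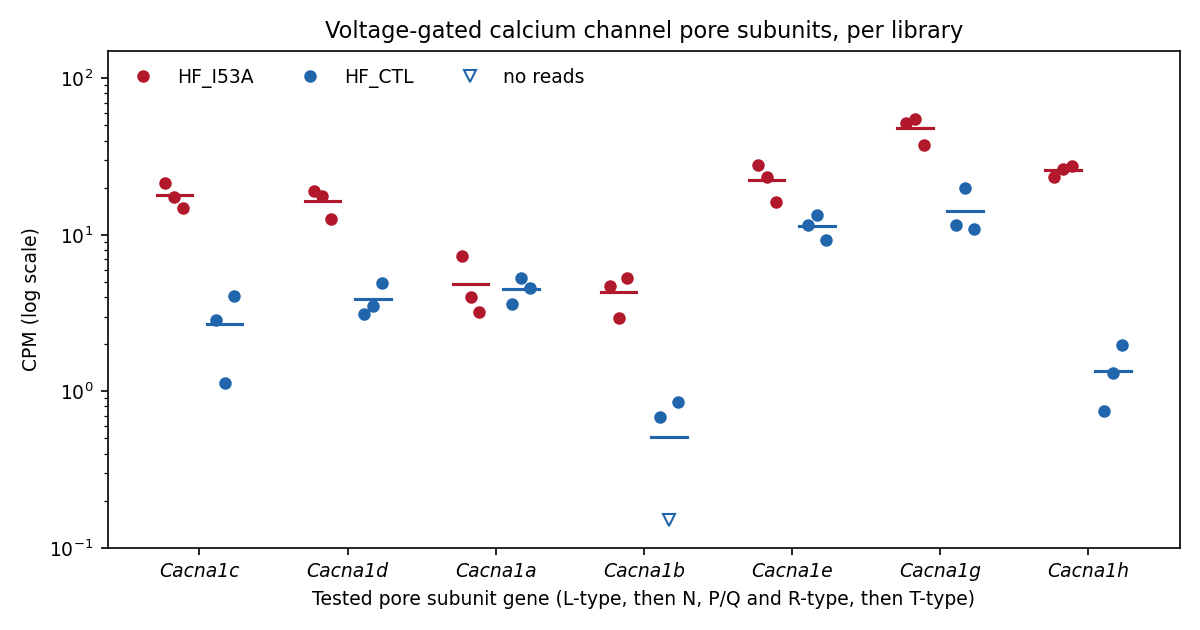
CPM on a log scale (vertical axis) of the 7 tested Cacna1 pore genes (horizontal axis) in each library, with HF_I53A in red, HF_CTL in blue and group means as lines; the open triangle marks the control library without a read of Cacna1b. The mutant libraries lie above all controls for 6 of the 7 genes, and overlap with them for Cacna1a.

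Dividing by exon length puts the pore genes on 1 scale, CPM per kilobase (kb) of annotated exon. The 10 Cacna1 genes summed to 12.3, 11.9 and 9.74 CPM per kb in the mutant libraries, against 2.45, 3.52 and 2.75 CPM per kb in the controls, a ratio of means of 3.89. The summed T-type level was 7.39 ± 0.826 CPM per kb in mutants and 1.54 ± 0.496 CPM per kb in controls, and the L-type level was 2.19 ± 0.383 in mutants and 0.474 ± 0.120 in controls (SD, n = 3 each). The N, P/Q and R-type sum differed less, at 1.75 ± 0.409 CPM per kb in mutants and 0.898 ± 0.0836 CPM per kb in controls. These sums rest on genes from the comparison above and carry no test of their own.

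The make-up of the pore transcripts restates the same CPM values as shares of their sum, and it carries no test of its own. T-type genes were 61.3, 68.1 and 66.8% of the summed Cacna1 level in the mutant libraries and 49.7, 59.9 and 46.7% in the controls. Cacna1h alone was 23.7% in mutants and 4.79% in controls on average, while Cacna1g was the leading pore transcript in both, at 41.6% in mutants and 47.3% in controls. Cacna1a was 3.67% of the pore level in mutants and 13.5% in controls, with a CPM that overlapped between groups. Cacna1e was 7.77% in mutants and 15.7% in controls, although its mean was higher in mutants (22.45 CPM) than in controls (11.42 CPM). A smaller share of the larger sum in mutants is therefore not a lower level.

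**Figure D3:**
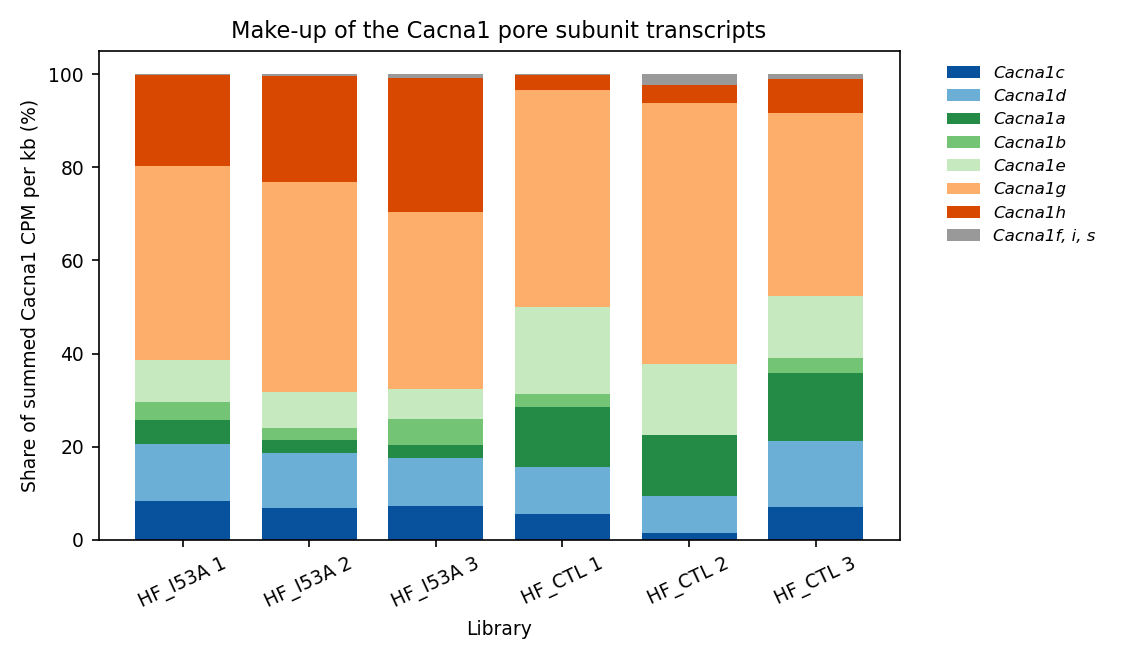
Share of each Cacna1 gene in the summed CPM per kb of all 10 Cacna1 genes (vertical axis, percent), for each library (horizontal axis). Cacna1h takes a larger share in each mutant library (19.6 to 28.8%) than in any control (3.13 to 7.4%).

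The level of the pore genes was modest beside other channel genes. Among the 66 channel genes in mutants, the highest levels per kb were those of Cacnb3 (26.2 CPM per kb), Trpm7 (20.6) and Trpv4 (12.1), and Cacna1g was at rank 4 (4.74). In controls, Trpm7 (26.0), Cacnb3 (21.4) and Trpv4 (13.95) led, and Cacna1g was at rank 10 (1.40). Cacna1h was at rank 9 in mutants, with 2.64 ± 0.207 CPM per kb, and at rank 31 in controls, with 0.138 ± 0.0634 CPM per kb (SD, n = 3 each). The first 3 of each order are therefore the same genes, and Cacnb3 and Trpm7 exchange places.

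**Figure D4:**
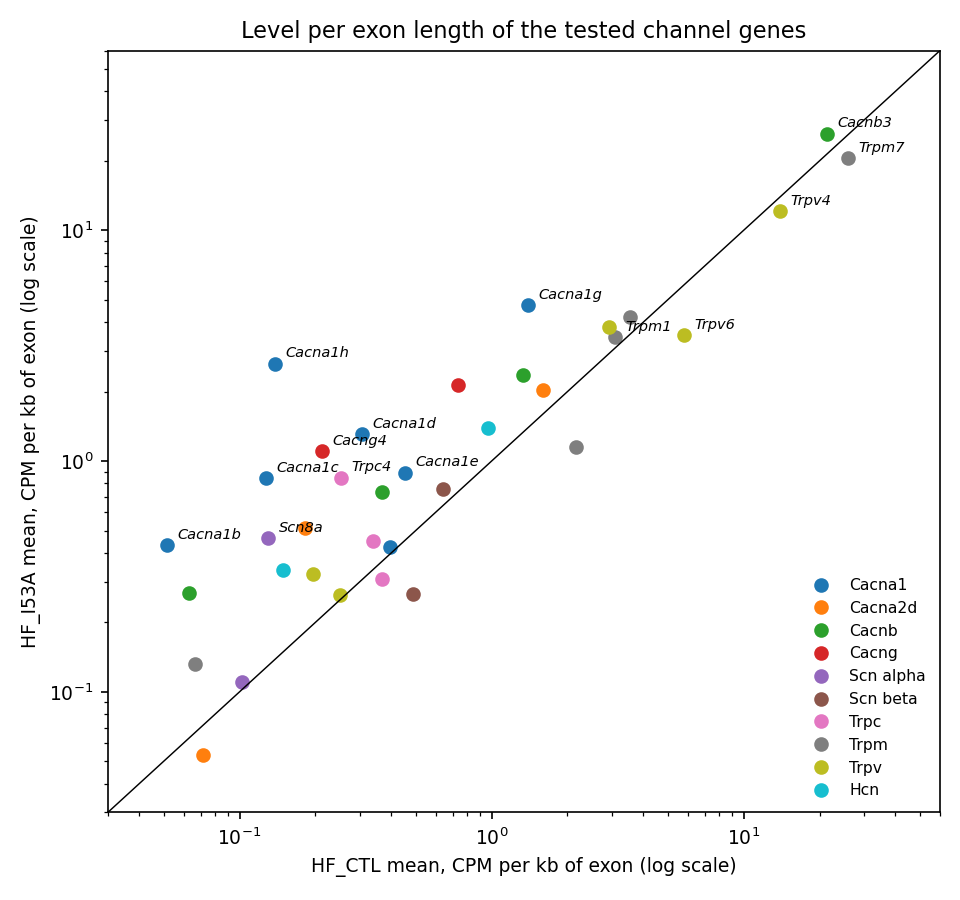
Mean level per exon length of 35 of the 37 tested channel genes, with HF_I53A on the vertical and HF_CTL on the horizontal axis (CPM per kb of exon, both log scales), coloured by family. The line marks equal levels; Cacna1h lies farthest above it, and Cacnb3, Trpm7 and Trpv4 lie near it at the top.

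None of the auxiliary subunit genes was called in the fit without the block or with it. In the Cacnb family, which binds the pore from inside the cell and carries it to the membrane, all 4 genes were tested and all had positive log2 fold changes. By far the highest was Cacnb3, with 106, 108 and 102 CPM in mutants and 64.1, 95.6 and 98.0 CPM in controls, so that the groups did not overlap and the difference was small (log2 fold change 0.29 ± 0.19 SE, adjusted p = 0.542). Cacnb1 averaged 10.7 ± 1.96 CPM in mutants and 6.06 ± 1.96 CPM in controls, and Cacnb4 averaged 6.61 ± 1.71 CPM in mutants and 3.29 ± 1.25 CPM in controls (SD, n = 3 each). Both lay above the controls in every mutant library, with log2 fold changes of 0.81 ± 0.34 SE for Cacnb1 (adjusted p = 0.294) and 1.01 ± 0.43 SE for Cacnb4 (adjusted p = 0.308). Cacnb2 overlapped between groups, with a log2 fold change of 2.09 ± 0.80 SE (adjusted p = 0.250). At an unadjusted p under 0.05, 3 Cacnb genes were higher, where 14.9% of all genes tested had such a p in either direction, and DESeq2 and limma-voom called 0.

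The Cacna2d genes encode an extracellular subunit, and gabapentin-type drugs bind those of Cacna2d1 and Cacna2d2. Cacna2d2 was the highest per kb (2.03 CPM per kb in mutants and 1.6 in controls), and it overlapped between groups (log2 fold change 0.34 ± 0.27 SE, adjusted p = 0.638). Cacna2d1 had 7.62, 3.34 and 8.09 CPM in mutants, against 1.02, 0.126 and 5.62 CPM in controls. Control 3 lay among the mutants, and the log2 fold change was 1.48 ± 0.92 SE (adjusted p = 0.522), or 3.48 without that library (adjusted p = 0.0381). Cacna2d1 was called in only that 1 of the 6 fits leaving out 1 library, and its adjusted p reached 0.748 without control 1. Cacna2d3 stayed at or under 1.08 CPM in every library, with a log2 fold change of -0.42 ± 0.89 SE (adjusted p = 0.891). Cacna2d4, under the filter, had 4 reads in mutants and 60 in controls, of which 50 were in control 2.

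The Cacng genes are known as gamma subunits of calcium channels and as partners of glutamate receptors, and 2 of the 8 were tested. Cacng4 had 1.21, 5.54 and 5.08 CPM in mutants, against 0.818, 0.941 and 0.511 CPM in controls. The groups did not overlap, and mutant 1 was close to the controls (log2 fold change 2.37 ± 0.69 SE, adjusted p = 0.119, and 0.0156 in DESeq2). Cacng7 had 3.18, 6.02 and 6.42 CPM in mutants, against 0.204, 4.77 and 0.397 CPM in controls. Control 2 lay within the range of the mutants (log2 fold change 1.53 ± 0.94 SE, adjusted p = 0.514), and without it the log2 fold change was 4.05 (adjusted p = 0.0230). That was the only 1 of the 6 fits leaving out 1 library that called Cacng7. The adjusted p reached 0.724 without mutant 2. Cacng3 and Cacng8 had no reads, and Cacng1, Cacng2, Cacng5 and Cacng6 had at most 22 reads in any library.

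Sodium channel pores were scarce, and 3 of the 10 Scn genes for pore subunits were tested, none of them called. Scn8a, a main sodium channel of neurons, was the highest per kb (0.463 CPM per kb in mutants and 0.130 in controls). It had 7.51, 4.71 and 9.69 CPM in mutants, against 1.77, 3.08 and 1.30 CPM in controls. All mutant libraries were above all controls, with a log2 fold change of 1.83 ± 0.47 SE (adjusted p = 0.0795). The adjusted p of Scn8a was 0.0535 with the replicate block, 0.0468 without the filter on low counts and 0.00574 in DESeq2. Scn7a, a relative known for sensing sodium, averaged 0.809 ± 0.742 CPM in mutants and 0.752 ± 0.629 CPM in controls (SD, n = 3 each).

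The other pore genes included the sodium channels of pain-sensing neurons. Scn10a had no reads, Scn11a had 1 read in all, and Scn9a had 0 reads in mutants and 5 in controls, all in control 3. Scn1a, Scn2a and Scn4a had at most 11 reads in any library, and Scn3a had 19 reads over the mutants and 31 over the controls. Among the beta subunits, which anchor the pore and shape its gating, Scn2b and Scn4b overlapped between groups, with log2 fold changes of -0.86 ± 0.68 SE for Scn2b (adjusted p = 0.634) and 0.23 ± 0.66 SE for Scn4b (adjusted p = 0.924). Scn4b was the highest beta subunit per kb in controls (0.644 CPM per kb). Scn3b had 2 reads in each group.

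No TRP gene was called in the fit without the block. Trpm7, a channel fused to a kinase and known for magnesium uptake, had the highest level of them, with 248, 234 and 217 CPM in mutants, against 320.4, 272 and 291 CPM in controls. Each mutant library was below each control, and the difference was not called (log2 fold change -0.34 ± 0.14 SE, adjusted p = 0.295, and 0.0590 with the block). Trpv6, an epithelial calcium uptake channel, was the other tested gene with all mutants below, at 17.1, 17.1 and 7.29 CPM in mutants and 26.4, 24.5 and 17.6 CPM in controls. Its log2 fold change was -0.72 ± 0.34 SE (adjusted p = 0.361, and 0.0533 with the block). Mutant 3 was the lowest, and the other mutant libraries were near control 3.

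The warmth-gated keratinocyte channels overlapped between groups. Trpv4 averaged 49.2 ± 14.2 CPM in mutants and 56.9 ± 9.15 CPM in controls, and Trpv3 averaged 22.3 ± 7.4 CPM in mutants and 17 ± 5.91 CPM in controls (SD, n = 3 each). Neither was called, with log2 fold changes of -0.21 ± 0.24 SE for Trpv4 (adjusted p = 0.782) and 0.39 ± 0.32 SE for Trpv3 (adjusted p = 0.651). Trpv1, the capsaicin receptor, and Trpv2 averaged under 1.5 CPM in both groups and overlapped. Trpv5, the renal relative of Trpv6, had 19 reads in mutants and 17 in controls.

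In the Trpm family, Trpm4, a calcium-activated channel for monovalent cations, averaged 45.4 ± 3.46 CPM in mutants and 38.3 ± 3.53 CPM in controls (SD, n = 3 each; log2 fold change 0.24 ± 0.18 SE, adjusted p = 0.598). Trpm2, a channel gated by ADP-ribose, had 19.4, 13.1 and 10.6 CPM in mutants, against 39.2, 32.8 and 8.97 CPM in controls. Control 3 was the lowest library of all, the log2 fold change was -0.90 ± 0.47 SE (adjusted p = 0.422), and without control 3 it was -1.31 (adjusted p = 0.0277). Trpm2 was called in only that 1 of the 6 fits leaving out 1 library, and its adjusted p reached 0.755 without control 1. Trpm1, known from melanocytes and retina, had 71.3, 53.8 and 27.0 CPM in mutants and 40.7, 29.4 and 66.1 CPM in controls, with overlap (adjusted p = 0.902). The summed level of 10 melanocyte markers was 28.0, 31.1 and 64.2 CPM in mutants and 27.7, 40.1 and 51.0 CPM in controls, with 6 tested, 0 called by edgeR, by DESeq2 or at an unadjusted p under 0.05, and no reads of Oca2. Of all genes tested, 14.9% had an unadjusted p under 0.05 in either direction, so few would be looked for among 6. The part of melanocytes in the Trpm1 count was not tested. Trpm5, a taste cell channel, averaged under 1 CPM in both groups. Trpm6, the close relative of Trpm7, was under the filter, with 21, 9 and 39 reads in mutants, against 6, 0 and 2 reads in controls (adjusted p = 0.266 without the filter). Trpm3 had 6 reads in mutants and 19 in controls, and the cold receptor Trpm8 had 4 in mutants and 2 in controls.

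Trpc genes encode channels opened downstream of phospholipase C. Trpc4 had 6.96, 5.31 and 8.16 CPM in mutants, against 2.04, 1.44 and 2.61 CPM in controls. The groups were well apart, with a log2 fold change of 1.74 ± 0.42 SE (adjusted p = 0.0590, and 0.0235 with the block). Trpc1 and Trpc5, which can join Trpc4 in 1 channel, overlapped between groups, with log2 fold changes of 0.41 ± 0.44 SE for Trpc1 (adjusted p = 0.753) and -0.25 ± 0.62 SE for Trpc5 (adjusted p = 0.907). Per kb, Trpc4 was the highest Trpc gene in mutants (0.848 CPM per kb) and Trpc5 in controls (0.369 CPM per kb). Trpc6 had 0 reads in mutants and 6 in controls, all in control 3, and Trpc7 had 0 in mutants and 3 in controls. Trpc2 and the irritant receptor Trpa1 had no reads.

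Of the 4 HCN genes 2 were tested, and neither was called. Per kb, Hcn3 was at rank 13 of the 66 channel genes in mutants and rank 12 in controls. Hcn3 averaged 5.77 ± 1.73 CPM in mutants and 4.02 ± 1.37 CPM in controls, and Hcn4, the pacemaker channel of the heart, averaged 2.06 ± 0.791 CPM in mutants and 0.910 ± 0.661 CPM in controls (SD, n = 3 each). Both overlapped between groups, with log2 fold changes of 0.52 ± 0.43 SE for Hcn3 (adjusted p = 0.653) and 1.18 ± 0.73 SE for Hcn4 (adjusted p = 0.519). Hcn2, under the filter, had 1 read in mutants and 4 in controls. In bulk RNA, more cells that carry a transcript and more transcript per cell cannot be told apart, and this holds for each channel gene above.

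Marker lists of other cells were read beside these genes. Of all genes tested, edgeR called 2.59% higher and 0.404% lower, and 14.9% had an unadjusted p under 0.05 in either direction. DESeq2 called 5.15% higher and 1.72% lower, and the replicate block 6.09% higher and 3.29% lower. Few calls would therefore be looked for in lists this short. The summed level of 13 neuron and Schwann cell markers was 45.6 to 63.9 CPM in mutants and 23.5 to 49.1 CPM in controls. Of these markers 9 were tested and 0 called by edgeR or DESeq2, 3 were higher at an unadjusted p under 0.05, and 1, the myelin gene Mbp, was called with the replicate block. Elavl4 and Nefl were under 1 CPM in every library. The 14 Merkel cell markers summed to 35.0 to 57.0 CPM in mutants and 29.4 to 65.4 CPM in controls, and edgeR called 0 of the 7 tested, with 1 lower at an unadjusted p under 0.05 and in DESeq2. The 13 muscle markers summed to 15.8 to 27.8 CPM in mutants and 19.4 to 35.1 CPM in controls, and edgeR called 0 of the 5 tested, with 1 lower at an unadjusted p under 0.05 and in DESeq2. The 6 endothelial markers summed to 13.3 to 27.1 CPM in mutants and 11.2 to 15.5 CPM in controls, with 3 tested and 0 called by edgeR, by DESeq2 or at an unadjusted p under 0.05. The 10 fibroblast markers summed to 699 to 986 CPM in mutants and 626 to 1115 CPM in controls, with 9 tested, 0 called by edgeR or DESeq2 and 1 higher at an unadjusted p under 0.05. Of 9 immune markers, which summed to 49.2 to 69.3 CPM in mutants and 59.7 to 99.0 CPM in controls, 5 were tested, with a median log2 fold change of -0.95. Of these H2-Ab1 rose, and 1 gene was lower at an unadjusted p under 0.05, in DESeq2 and with the replicate block. The median log2 fold change of the tested neuron and Schwann cell markers was 0.74, beside 0.72 for the tested channel genes. It was -0.51 for Merkel cell, -0.56 for muscle, 0.12 for endothelial and 0.08 for fibroblast markers. The part of such cells in the channel gene counts was not tested.

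The genes next to the called pore genes were compared in the same fit. Of the 24 tested coding genes that lie nearest, 3 on each side of each called gene, 0 were called. Among all genes tested, 2.59% were called higher and 0.404% lower, so few calls would be looked for among 24 genes. At an unadjusted p under 0.05, 3 of the 24 were higher and 0 lower, where 14.9% of all genes had such a p in either direction. DESeq2 and limma-voom called 0 of the 24. The fit with the block called 1, Prkcd beyond Cacna1d, where it called 6.09% of all genes higher and 3.29% lower. Their log2 fold changes ran from -0.94 to 1.68, and the highest was that of Sox8, 132 kb from Cacna1h (adjusted p = 0.251). The nearest genes were 5.19 to 157 kb away. Genes on the opposite strand overlap Cacna1c and Cacna1d, and strand was not stated for the counting, so reads in the shared stretches cannot be told apart. Dcp1b, which overlaps Cacna1c, had a log2 fold change of -0.37 (adjusted p = 0.485). Chdh and Dcp1a, which overlap Cacna1d, had log2 fold changes of 0.19 for Chdh (adjusted p = 0.828) and -0.20 for Dcp1a (adjusted p = 0.760). Tpsg1, which overlaps Cacna1h, had 8 reads in mutants and 2 in controls.

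**Figure D5:**
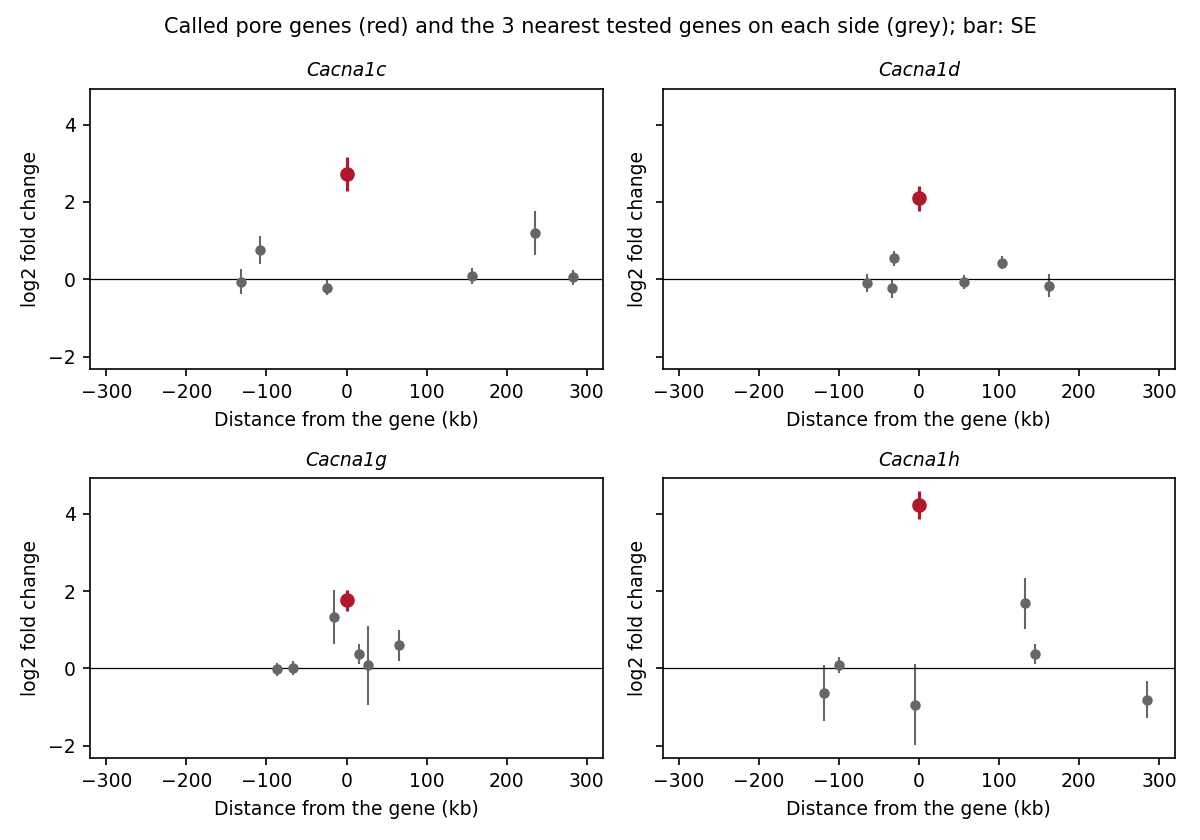
Log2 fold change, HF_I53A over HF_CTL (vertical axis, bars are the SE), of each called pore gene (red) and of the 3 nearest tested coding genes on each side (grey), by distance from the gene in kb (horizontal axis, negative towards lower coordinates). The fitted value of each called pore gene lies above those of all 6 of its neighbours. The pore genes are drawn because this fit called them higher, so such an order would be looked for and is no test.

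Pumps, exchangers, store channels and regulators that work with these channels were read as a list of 66 genes, of which 55 were tested. In the mutants 2 of them rose and 0 fell, against 2.59% of all genes called higher and 0.404% lower. At an unadjusted p under 0.05, 9 were higher and 2 lower, where 14.9% of all genes tested had such a p in either direction. DESeq2 called 5 higher and 0 lower, against 5.15% and 1.72% of all genes, and limma-voom called 0 in either direction. Atp2c2, a calcium and manganese pump of the secretory pathway, had 5.10, 3.52 and 3.48 CPM in mutants, against 0.681, 0.439 and 0.511 CPM in controls (log2 fold change 2.88 ± 0.56 SE, adjusted p = 0.0239). Slc8a3, a sodium-calcium exchanger, had 0.877, 8.29 and 4.81 CPM in mutants, against 0.136, 0 and 0.341 CPM in controls (log2 fold change 4.77 ± 1.08 SE, adjusted p = 0.0479). The call of Atp2c2 held in 1 and that of Slc8a3 in 2 of the 6 fits that left out 1 library. The block called 9 partners higher and 1 lower, against 6.09% of all genes higher and 3.29% lower. Among those it added were Ryr1, a calcium release channel, with 16.2 CPM in mutants and 5.03 CPM in controls (adjusted p = 0.0158 with the block and 0.0758 without it), and the mechanically gated channel Piezo1, with 149 CPM in mutants and 95.9 CPM in controls (adjusted p = 0.00642 with the block and 0.432 without it). Among the partners with the highest levels were Calm2 (558 CPM in mutants and 516 in controls), Atp2b4 (501 CPM in mutants and 384 in controls) and Atp2a2 (390.4 CPM in mutants and 467.5 in controls), and none of these was called without the block.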

How the data were processed

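The submitters' processing notes name DESeq2 1.6.3, HTSeq 0.6.1, Cufflinks 2.2.1, TopHat2 2.0.13 and the build mm10, without role or order. The sources used here do not state whether reads were counted by strand, or on which annotation release. Each deposited file holds the raw read counts of 1 library by gene symbol, as its whole-number values show. Per the labels' protocols, 10 ng of total RNA was amplified before library construction, and intervals and floors cover counting error only.

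Counts were tested with edgeR 4.0.16 in R 4.3.3 (quasi-likelihood test, TMM factors, filterByExpr, group as the only term, Benjamini-Hochberg over all 14345 genes tested, two-sided). The filter removed 0.0971% of counts. The steps were tested on simulated data with known changes. CPM uses TMM effective library sizes, and CPM per kb divides by the exon union of GENCODE M21. All 66 channel genes had an annotation. Alternatives were other scalings and filters, DESeq2 1.42.0, limma-voom (limma 3.58.1), a replicate block and leaving out each library. Totals ran from 14335156 to 18811587 counts, and no 2 of the libraries agreed within sampling noise (lowest chi-square over its degrees of freedom 25.7, among 15 pairs). Deviations of same-numbered libraries correlated at 0.168 to 0.363, and those of other pairs at 0.0891 or less, so the numbers were taken to pair the libraries from the data, not from the labels. These correlations are weak and come from the libraries that the block fit uses. The block is therefore given only as an alternative.

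The channel genes, the lists, the partner genes and the rule for named genes were chosen with earlier results of these data known. Named are the targeted genes, every channel gene called without or with the block, the 3 smallest p and the highest level per kb in each family, and of the partners the called genes and the 4 highest. Further uncalled genes were named after their values were seen. A few genes that this rule covers are not reported here.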

Additional observations from a re-analysis of the deposited data

How the results depend on the processing

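Cacna1h, Cacna1c and Cacna1d were called under each scaling, filter and tool tried, with the replicate block and without each library, and Cacna1g in all of these but 2, with a log2 fold change of 1.66 without mutant 2 and 1.63 without control 1. The count of channel genes called higher was 4, 6 without the filter (adding Scn8a and Trpc4), 9 with DESeq2 and 7 with the replicate block, and 3 to 6 when 1 library was left out, 6 without control 3; the count called lower was 0, and 0 to 1 when 1 library was left out, the 1 being Trpm2 without control 3. The median log2 fold change of tested channel genes was 0.72, 0.39 without the filter, 0.53 with the replicate block and 0.48 (without mutant 2) to 0.79 when 1 library was left out. Partners called higher numbered 2, and 1 under DESeq2-type size factors or the stricter filter, 5 with DESeq2, 0 with limma-voom, 3 without the filter, 9 with the replicate block (1 lower) and 0 to 2 when 1 library was left out. All genes called numbered 430, 986 with DESeq2, 1345 with the replicate block and 163 to 664 when 1 library was left out, lowest without mutant 2 and highest without control 3. The 4 scalings moved the median of all genes by less than 0.1 on the log2 scale. Signs reversed for 9 uncalled genes. With limma-voom the log2 fold change was -0.56 for Scn7a and -0.0575 for Trpv1, and with the replicate block it was -0.17 for Scn7a. When 1 library was left out it ran from -0.78 to 1.03 for Scn7a, -0.54 to 1.11 for Trpv1, -0.32 to 0.33 for Cacna1a, -0.17 to 0.54 for Trpm1, -0.24 to 0.76 for Scn4b, -0.41 to 1.27 for Trpv2, -0.39 to 0.0071 for Trpv4, -0.56 to 0.13 for Trpc5 and -0.80 to 0.24 for Cacna2d3. Of the values of single genes, 507 kept direction and side of the threshold, 14 of 8 genes passed it newly and 2 of Cacna1g lost it. The causes were not tested. Channel genes near the floor of 3 counts were not resolved at this depth, and 29 of 66 were not tested.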
